A study of Mus musculus with 2 samples.

Results

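Hepatic stellate, mesothelial and fibroblast genes, together with elastic fibre and matrix genes other than collagens, were compared between the livers of a wild-type and a Prox1 conditional knockout mouse embryo sample. The list holds 40 genes, chosen by name, and its members are all probe sets that the array's annotation assigns to exactly 1 of these genes. That gave 77 probe sets for 37 genes, out of 18193 genes that a probe set of this kind represents. Fbn1 and Efemp2 had no such probe set and Loxl2 had only probe sets listed under several genes, so these were not analysed here.

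The samples were E14.5 livers of strain NMRI/C57Bl6, 1 wild-type and 1 of genotype Prox1 f/f;Foxa3Cre, each on 1 single-colour Affymetrix array. In the knockout, Cre recombinase under the control of Foxa3, which is active in endoderm, recombines a floxed Prox1 gene; Prox1 is a homeodomain protein that regulates transcription in hepatoblasts. How many embryos went into each sample and which part of Prox1 is removed are not given in the sources used here. With 1 array per genotype there was no replicate, no spread between samples and no test, so each difference below is between these 2 samples. The size mark for counting genes was 2-fold.

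In fetal liver, mesenchymal cells form a sheet of mesothelium over the organ, a layer beneath it and the stellate cells that line the sinusoids, and they arise from mesoderm and not from the endoderm that gives hepatoblasts. Stellate cells store vitamin A, signal to hepatoblasts and vessels, and make much of the organ's matrix. Elastic fibres consist of an elastin core on a scaffold of fibrillin microfibrils; fibulins help to assemble them, and lysyl oxidases cross-link elastin and collagen.

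Mesenchymal genes mostly read higher in the knockout. Of the 30 members measured on at least 1 array, meaning above a floor of 112.6 signal units, 12 were at least 2-fold higher in the knockout and 0 at least 2-fold lower. The log2 difference (knockout minus wild type) exceeded 0 for 28. Among all 11397 measured genes, the shares were 3.27% for higher, 2.13% for lower and 53.8% above 0. The median log2 difference was 0.90 over the measured members and 0.03 over all measured genes. The members called higher were Fbln1, Cdh11, Hand2, Pdgfrb, Loxl1, Lum, Tcf21, Bgn, Lhx2, Ngfr, Vim and Mfap2. The first 5 of these also passed 3-fold, a mark that 0.869% of all measured genes passed; 22 members passed 1.5-fold, as did 9.87% of all measured genes.

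The filter itself favours a difference for members that passed it on 1 array. There were 7 such members, all above the floor in the knockout alone: Cygb, Tagln, Wt1, Bnc1, Fbln2, Loxl1 and Mgp. Their differences are bounds, since the true wild-type level lies at or below the floor. Among the 23 members measured on both arrays, 11 were at least 2-fold higher against 2.61% of all genes measured on both, 21 were above 0 against 52.1%, and the median was 0.92 against 0.01. With no floor and no filter, 17 of all 37 members passed 2-fold upwards, Mfap5 alone passed it downwards and 32 were above 0; the shares over all genes were 12.5% for 2-fold upwards, 7.68% for 2-fold downwards and 55.3% above 0.

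The members' count at 2-fold differed with signal, and so did the share of all genes, which was largest in the lowest band. Between mean signals of 250 and 1000, 8 of 12 members were at least 2-fold higher against 4.14% of genes in that band, and above 1000 it was 3 of 9 against 1.17%. Below 250 it was 1 of 9 against 5.08%. This band holds all 7 bounds among the 30 measured members, Loxl1 (the 1 called higher) included. Most differences in it are therefore lower limits, and its count cannot be compared with those of the brighter bands.

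**Figure D1:**
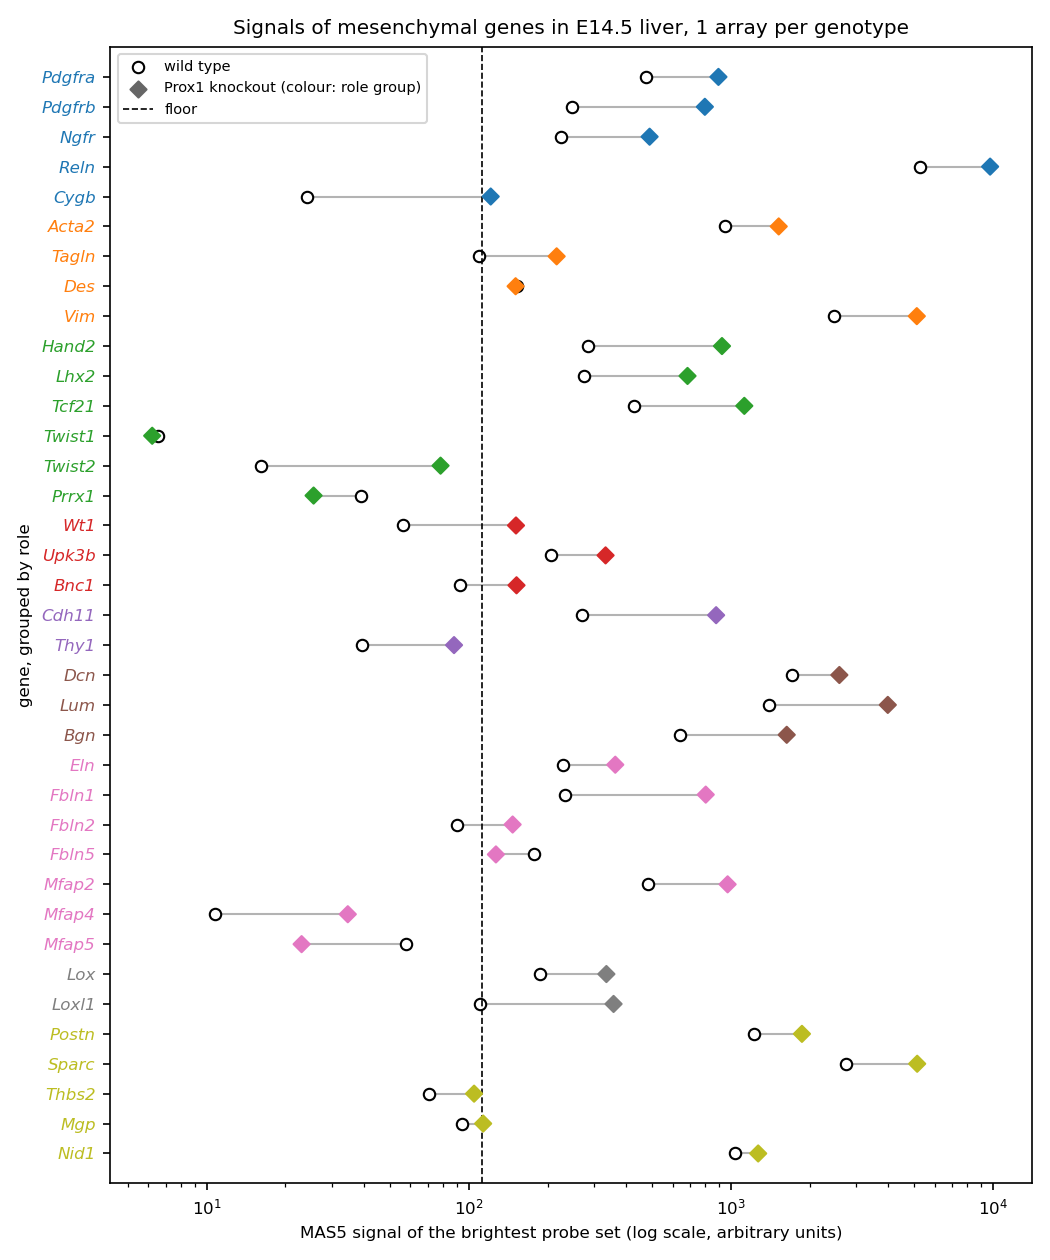
MAS5 signal of the brightest probe set of each of the 37 genes (log axis), with open circles for the wild-type array, diamonds for the Prox1 knockout array (1 array each) and the dashed line at the floor of 112.6. Most diamonds lie to the right of their circles, from Cdh11 (271.0 and 879.7) to Reln (5269 and 9768), while Fbln5 (176.9 and 127.1) lies the other way and Des (153.6 and 151.1) nearly coincides.

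Promoters of 4 of the higher members are shown because these genes read higher together and their windows hold one of the short motifs searched. Each runs 5′ to 3′ on the gene's strand, from 250 bases before to 50 after the RefSeq start in build GRCm38.p6, and capitals mark the motif match. CAGCTG and CATCTG are E-boxes, the kind of site bound by bHLH factors such as Hand2 and Twist1, and TATAAA is a TATA-box core, an element of promoters in general.
Bgn (chrX:73483351-73483650, + strand, capitals CAGCTG): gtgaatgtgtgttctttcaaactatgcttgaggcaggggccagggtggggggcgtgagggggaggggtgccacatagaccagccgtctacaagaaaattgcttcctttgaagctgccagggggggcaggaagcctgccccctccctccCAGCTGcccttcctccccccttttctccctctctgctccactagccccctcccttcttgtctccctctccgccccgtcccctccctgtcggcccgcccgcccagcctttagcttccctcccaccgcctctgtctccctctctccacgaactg
Fbln1 (chr15:85205699-85205998, + strand, capitals CAGCTG): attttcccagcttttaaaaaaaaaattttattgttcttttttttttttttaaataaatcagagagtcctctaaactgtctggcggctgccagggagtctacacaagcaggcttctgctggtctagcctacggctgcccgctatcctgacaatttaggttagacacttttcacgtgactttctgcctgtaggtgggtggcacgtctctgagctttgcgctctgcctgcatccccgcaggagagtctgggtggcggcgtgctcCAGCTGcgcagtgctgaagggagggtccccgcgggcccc
Hand2 (chr8:57320733-57321032, + strand, capitals CATCTG): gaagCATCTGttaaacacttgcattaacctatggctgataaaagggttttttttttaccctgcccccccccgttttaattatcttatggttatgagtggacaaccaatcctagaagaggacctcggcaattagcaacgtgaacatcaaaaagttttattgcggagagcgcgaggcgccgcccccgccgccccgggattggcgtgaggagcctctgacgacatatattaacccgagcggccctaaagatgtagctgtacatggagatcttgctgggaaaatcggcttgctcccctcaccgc
Vim (chr2:13574061-13574360, + strand, capitals TATAAA): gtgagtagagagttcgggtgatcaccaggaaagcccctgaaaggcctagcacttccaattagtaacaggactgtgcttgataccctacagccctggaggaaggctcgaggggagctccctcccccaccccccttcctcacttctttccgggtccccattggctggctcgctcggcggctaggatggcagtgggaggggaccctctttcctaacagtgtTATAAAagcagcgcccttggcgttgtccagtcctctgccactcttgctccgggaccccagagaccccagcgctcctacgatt

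The promoter table held 25 of the 40 genes. Searched on both strands, CAGCTG was in the window of 7 of 25 genes against 18.3% of all 27025 genes with a promoter entry, CATCTG in 6 against 19.2%, and TATAAA in 4 against 15.7%. The CArG box, the site of serum response factor, was searched only as CC, then 6 of A or T, then GG. This pattern was in 0 of 25, against 1.81% of all genes. Sites that depart from it are not counted and it is rare, so the 0 does not show that these promoters lack such sites. These are letter matches in short windows and do not measure binding.

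Stellate and pericyte receptors and markers were higher, with 2 of 5 members at least 2-fold higher and a median log2 difference of 0.92. Pdgfrb, the platelet-derived growth factor receptor of stellate cells and pericytes, had signals of 247.2 (wild type, given first throughout) and 796.9 (knockout), 3.22-fold higher. Its other probe set read 9.73 and 239.2 and was at least 2.13-fold higher, a bound whose direction the floor fixes. Pdgfra, the receptor of fibroblasts and other mesenchyme, read 473.5 and 897.9, 1.90-fold higher, and its other probe sets were at or below the floor on both arrays. Ngfr, a neurotrophin receptor found on stellate cells and nerve, read 224.7 and 490.4, 2.18-fold higher. A second Ngfr probe set read 4.54 and 113.6, barely above the floor in the knockout, so it adds a bound of only 1.01-fold. Reln, a secreted glycoprotein made by stellate cells and by lymphatic vessels, read 5269 and 9768, 1.85-fold higher. Cygb, a globin of stellate cells, read 24.2 and 121.4 on its single probe set; its bound is 1.08-fold, and its log2 difference is 1.46 with the floor at the 30th percentile.

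Contractile and cytoskeletal genes had a median log2 difference of 0.81, with 1 of 4 at least 2-fold higher. Vim, the intermediate filament protein of mesenchymal and many blood cells, read 2473 and 5130, 2.08-fold higher, and its other probe sets were 2.13-fold and 1.96-fold higher. Acta2, smooth muscle actin, read 953.6 and 1525, a log2 difference of 0.68, on a probe set whose suffix marks probes that can match several transcripts; the remaining Acta2 probe sets never reached the floor and gave opposite directions, at 11.8 and 13.1 and at 106.5 and 48.9. Tagln, an actin-binding protein of smooth muscle, read 110.0 and 216.7, at least 1.92-fold higher. Des, the muscle filament protein that also marks stellate cells, read 153.6 and 151.1, nearly equal and close to the floor on both arrays. Des stood apart from Pdgfrb and Vim in this respect.

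Beyond the members, 18 other smooth muscle and pericyte contractile genes were listed and 14 were measured. Of these, 1 was at least 2-fold higher, 0 at least 2-fold lower and 11 above 0, with a median log2 difference of 0.31. Flna, which cross-links actin, read 645.9 and 1383 and was 2.14-fold higher, Myl9, a myosin light chain, was 1.78-fold and Cnn2, a calponin, 1.74-fold higher. The smooth muscle myosin Myh11, Cnn1, Lmod1 and the coactivator Myocd were below the floor on both arrays.

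All 3 measured mesenchymal transcription factors were at least 2-fold higher, and the other 3 were below the floor on both arrays. Hand2, a bHLH factor of lateral mesoderm and its derivatives, read 285.9 and 926.2, 3.24-fold higher, while its other probe sets, at 38.9 and 35.2 and at 2.91 and 3.87, lay below the floor. Tcf21, a bHLH factor of mesothelium and visceral mesenchyme, read 427.5 and 1127, 2.64-fold higher. Lhx2, a LIM homeodomain factor needed to keep stellate cells quiescent, read 276.0 and 684.3, 2.48-fold higher on its single probe set. Twist1 read 6.51 and 6.20, Twist2 16.2 and 78.1, and all 6 probe sets of Prrx1 were at most 41.8, so these regulators of limb and head mesenchyme were not measurable in either liver.

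Mesothelial members had a median log2 difference of 0.44, of which 2 of 3 values are bounds; it is 0.71 with the floor at the 30th percentile. Upk3b, a uroplakin of mesothelium, read 206.5 and 333.1, 1.61-fold higher, while its other probe set, at 23.24 and 29.35, lay below the floor. Wt1, the zinc finger factor of mesothelium, read 56.0 and 151.6 and Bnc1, another zinc finger factor, 93.0 and 152.3; being below the floor in wild type, they give bounds of 1.35-fold each. With the floor at the 30th percentile the log2 difference of Wt1 is 1.44. The probe sets that represent Upk3b and Wt1 carry the same suffix as that of Acta2. Without suffixed probe sets only Bnc1 was measured. Among 11 other mesothelial genes, 7 were measured, 4 of them above 0 and 0 apart by 2-fold, with a median log2 difference of 0.23. That median is the value of the keratin Krt18 (3008 and 3535). The others above 0 were Krt8 (2974 and 3548), Cdh2 (1047 and 1295) and Aldh1a2, the retinoic acid synthesising enzyme (117.2 and 166.0). Which cells of the whole organ gave these readings was not tested. Upk1b, at 187.0 and 151.5, went the other way, while Msln, Lrrn4, Muc16 and Rspo1 were below the floor on both arrays.

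Of the adhesion genes, Cdh11, a cadherin of mesenchymal cells, read 271.0 and 879.7, 3.25-fold higher. Thy1, a surface glycoprotein of portal fibroblasts and lymphocytes, read 39.3 and 88.0, below the floor on both arrays.

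The small leucine-rich proteoglycans, which bind collagen fibrils and growth factors, were higher in all 3 cases, with a median log2 difference of 1.35. Lum (lumican) read 1406 and 3976, 2.83-fold higher on its single probe set. Bgn (biglycan) read 640.6 and 1636, 2.55-fold higher, and its other probe sets were 3.55-fold and 2.61-fold higher. Bgn lies on the X chromosome, and Xist, the RNA of the inactive X, read 11466 and 365.7; the part of this in the Bgn difference was not tested. Dcn (decorin), the third of the family, read 1712 and 2598, 1.52-fold higher and thus short of 2-fold.

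**Figure D2:**
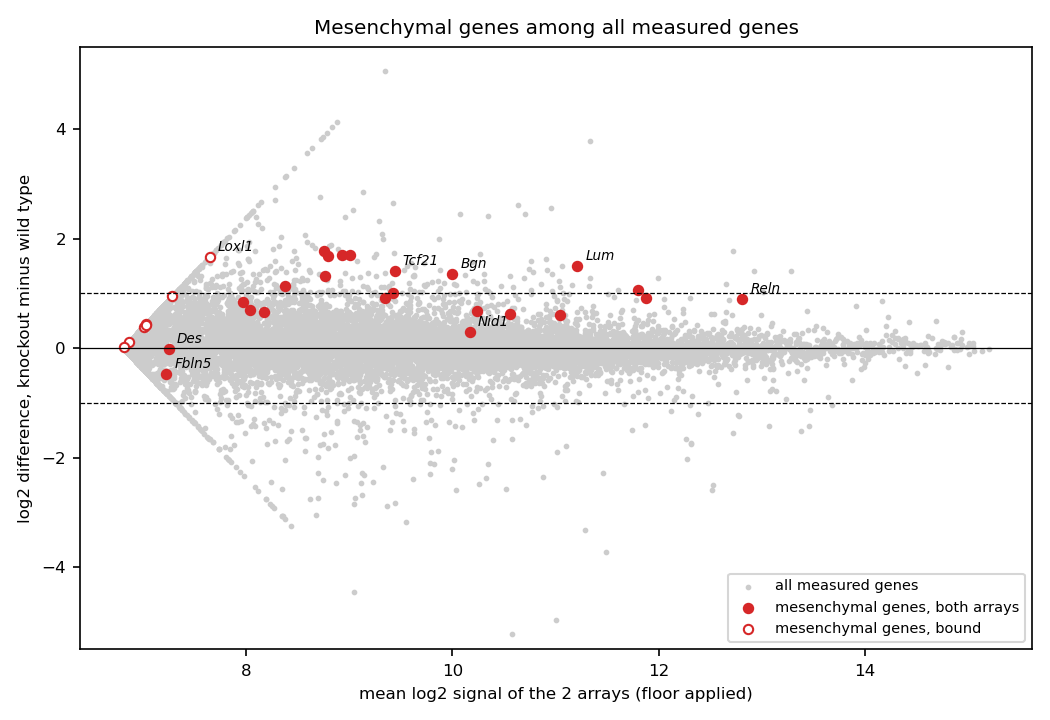
Log2 difference (knockout minus wild type, 1 array each) against the mean log2 signal for all 11397 measured genes in grey and the 30 measured mesenchymal genes in red, open where only a bound exists; dashed lines mark 2-fold. The red points lie almost all above 0, among them Lum (2.83-fold) and Reln (1.85-fold) in the brighter part of the range, with Des and Fbln5 below 0.

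Elastic fibre genes were mixed. Of 5 measured, 2 were at least 2-fold higher, 4 were above 0 and the median log2 difference was 0.66. Fbln1 (fibulin-1), a matrix protein of basement membranes and elastic fibres, read 233.9 and 803.1, 3.43-fold higher, the largest difference among members measured on both arrays; members with only a bound cannot be ranked against it. Its other probe sets, at 33.6 and 218.7 and at 71.3 and 138.9, were below the floor in wild type and give bounds of 1.94-fold and 1.23-fold, so the size for Fbln1 rests on 1 probe set. Mfap2, a microfibril glycoprotein, read 482.1 and 973.3, 2.02-fold higher, and its second probe set at least 2.01-fold higher. It falls just under 2-fold, at log2 differences of 0.991 and 0.994, when the arrays are quantile normalized or lowess corrected. Eln (elastin) read 229.3 and 362.7, 1.58-fold higher. Fbln2 (fibulin-2) read 90.2 and 147.2, at least 1.31-fold higher. Fbln5 (fibulin-5), which tethers elastin to microfibrils, was the measured member with the lowest difference: it read 176.9 and 127.1, 1.39-fold lower. The knockout value is close to the floor, and the other Fbln5 probe set, at 39.4 and 4.21, was below it on both arrays. Mfap4 (10.8 and 34.6) and Mfap5 (57.8 and 23.1 on the brighter probe set, 3.52 and 9.31 on the other) were below the floor on both arrays.

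Both analysed lysyl oxidases were higher. Lox read 186.5 and 335.5, 1.80-fold higher, and a second probe set read 58.8 and 206.9, at least 1.84-fold higher. Loxl1, which acts on elastin, read 110.3 and 357.3, at least 3.17-fold higher; the wild-type value lies just below the floor. With the floor at the 60th percentile the Loxl1 bound drops under 2-fold, to a log2 difference of 0.91.

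Matricellular and other matrix members differed by less than 2-fold on the probe set that represents them, with a median log2 difference of 0.45 over 4 measured. Sparc, a collagen-binding matricellular protein, read 2742 and 5147, 1.88-fold higher, and 2.29-fold higher on a second probe set at 909.7 and 2085. Postn (periostin) read 1222 and 1870, 1.53-fold higher. Mgp (matrix Gla protein, an inhibitor of calcification) read 94.5 and 113.6, at the floor. Nid1 (nidogen-1), which links laminin to collagen IV in basement membranes, gave no direction: it read 1039 and 1273 on its brightest probe set, 1.23-fold higher, and 401.9 and 321.6 on another, 1.25-fold lower. Thbs2 (thrombospondin-2) had its brightest probe set under the floor, at 70.6 and 104.9, and another read 38.0 and 144.4, at least 1.28-fold higher.

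Probe sets of the same gene were the only repeated measure in these data. Of the 9 members with at least 2 measured probe sets, 5 (Pdgfrb, Ngfr, Fbln1, Mfap2 and Lox) have fewer than 2 that were above the floor on both arrays; their other probe sets are bounds above 0 by construction and show no agreement. For the remaining 4, each with at least 2 probe sets above the floor on both arrays, all these probe sets were higher in Bgn, Sparc and Vim and they differed in direction in Nid1. Over all 4593 genes of this kind, 26.8% had all such probe sets higher. The range of log2 differences within a gene was 0.12 for Vim, 0.29 for Sparc, 0.47 for Bgn and 0.61 for Nid1, with a median of 0.31 over all such genes. Counted singly, bounds included, 18 of 43 measured member probe sets were at least 2-fold higher, against 2.69% of all measured probe sets, and 0 at least 2-fold lower, against 1.76%.

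**Figure D3:**
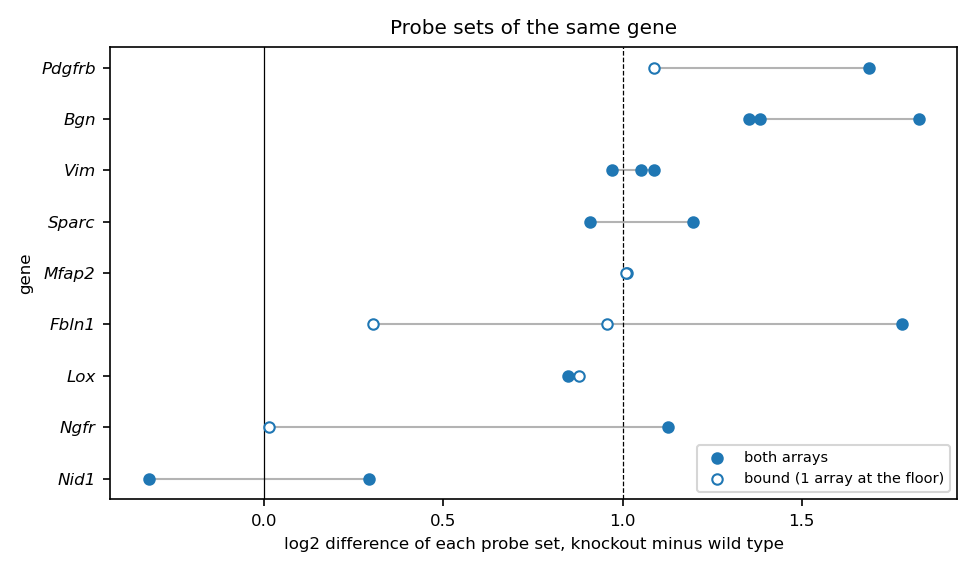
Log2 difference (knockout minus wild type) of each measured probe set of the 9 genes with at least 2, filled where both arrays were above the floor and open where the value is a bound, which the floor keeps above 0; the dashed line marks 2-fold. The 3 probe sets of Vim lie between 0.97 and 1.09, those of Fbln1 spread from 0.30 to 1.78, and those of Nid1 fall on both sides of 0.

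Other genes of stellate cells, of the matrix and of the signals between them also lay mostly above 0. Of 22 measured among 28 other stellate genes, 7 were at least 2-fold higher, 0 at least 2-fold lower and 21 above 0, with a median log2 difference of 0.53. Rgs5, a regulator of G protein signalling in pericytes, was 3.01-fold higher (178.9 and 538.6), the endothelin receptor Ednrb 2.70-fold (572.9 and 1544) and the Wnt amplifier Rspo3 2.61-fold (243.2 and 633.6). Lrat, which makes the retinyl esters that stellate cells store, was 1.35-fold higher (293.8 and 397.1); it was chosen after its value was seen. Of 19 collagens, the matrix genes most like these members, 16 were measured and 6 were at least 2-fold higher, led by Col1a1 at 3.96-fold, with a median of 0.81. The members' median was 0.90, and no test between the lists is possible with these arrays. On probe sets without the suffixes _s_at, _x_at and _a_at the medians were 1.31 for collagens and 0.92 for the members.

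Of 28 measured among 36 other matrix and elastic fibre genes, 7 were at least 2-fold higher, 0 at least 2-fold lower and 23 above 0, with a median log2 difference of 0.42. The proteoglycan Vcan (versican) was 4.06-fold higher (160.9 and 654.0), the latent TGF-beta binding protein Ltbp3 at least 2.98-fold (105.4 and 335.0) and the collagen chaperone Serpinh1 2.42-fold (1665 and 4024). In the PDGF, TGF-beta and hedgehog list all 23 measured genes were above 0, against 53.8% of all measured genes. Of the 23, 10 are bounds that the floor keeps above 0. Only 2 were at least 2-fold higher and the median was 0.37. These were the ligand Pdgfc (93.9 and 293.6, at least 2.61-fold) and the TGF-beta target Ccn2 (109.7 and 273.6, at least 2.43-fold), with the ligand Pdgfa next at 1.94-fold (139.9 and 271.2).

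**Figure D4:**
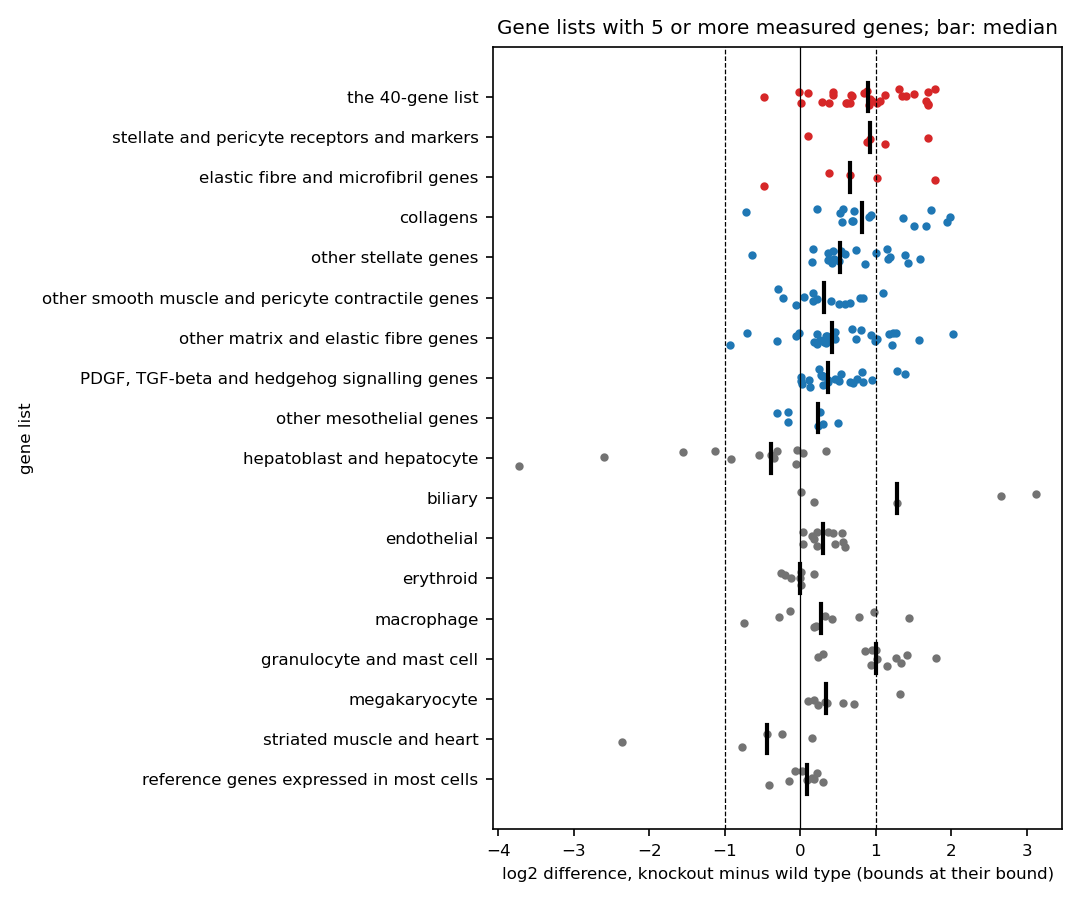
Log2 difference (knockout minus wild type) of each measured gene, with bounds at their bound, for lists with at least 5 measured genes: mesenchymal members in red, other mesenchyme, matrix and signalling lists in blue, cell type markers in grey; bars are medians and dashed lines mark 2-fold. The medians are 0.90 for the members, 0.81 for collagens, 1.01 for granulocyte genes, 1.28 for the 5 measured biliary genes (all bounds) and 0.30 for endothelial genes.

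Markers of other cells differed as well, and their part in the members' differences was not tested. Hepatoblast and hepatocyte genes had 4 of 13 at least 2-fold lower, 2 above 0 and a median log2 difference of -0.38, and their summed signal was 252030 in wild type and 195357 in the knockout; the median was -0.88 on probe sets without the suffixes. The plasma proteins Ahsg (13.2-fold), Apoh (6.07-fold) and Fgb (2.94-fold) were the lowest of them. Afp, the brightest of the list, was nearly equal at 36369 and 35212, and Alb had a log2 difference of 0.03, so the lower sum was not shared by all these genes. The members' summed signal was 22149 and 43434. Biliary genes had summed signals of 417.9 and 2316, and 3 of 5 measured were at least 2-fold higher, all of them below the floor in wild type: the keratin Krt19 (at least 8.72-fold), the claudin Cldn7 (at least 6.34-fold) and the adhesion protein Epcam (at least 2.42-fold). Cftr, Muc1 and Onecut1 of that list were below the floor on both arrays. Of 12 granulocyte and mast cell genes 6 were at least 2-fold higher and all 12 above 0, with summed signals of 36169 and 75502. Fcnb (3.49-fold), S100a9 (2.65-fold) and Ms4a3 (2.53-fold) led them. Macrophage genes had 1 of 10 at least 2-fold higher, the scavenger receptor Marco (2.71-fold), and 3 below 0. Their median log2 difference was 0.27 and their summed signals were 12007 and 15658, with Cd163 and Vsig4 below the floor on both arrays. Megakaryocyte genes had 1 of 8, the integrin Itgb3 (at least 2.49-fold), and sums of 15404 and 18763, and 0 of 12 endothelial genes passed 2-fold (6547 and 7890). All 8 megakaryocyte and all 12 endothelial genes were above 0, with 1 bound in each list, while 4 of 7 measured erythroid genes were below 0. Erythroid genes were at summed signals of 93395 and 92233, with Hba-a1 at or below the floor on the probe set used, and genes expressed in most cells at 130213 and 142111. Since whole organs were profiled, a larger share of mesenchymal cells and more RNA of these genes per cell cannot be told apart.

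Markers of adjoining tissues were mostly at or below the floor on both arrays: 7 of 8 cartilage and bone genes with a probe set, 6 of 7 of neural crest, glia and neuron, 11 of 12 of stomach, pancreas, spleen and gut, 6 of 8 of kidney, adrenal and gonad, and 9 of 14 of striated muscle and heart, a tissue rich in desmin. The summed signals of the first 4 lists were 338.6 and 387.0, 346.1 and 598.3, 304.8 and 684.3, and 592.5 and 704.1. These sums include the readings at or below the floor. The only measured gene was Sox10 (193.1 and 265.4) in the neural list and Vil1 (20.6 and 259.6) in the gut list. The muscle list's summed signal was 4061 and 1624, mainly Tnnc1 (2906 and 563.0). Prox1 itself read 340.3 and 221.8, 1.53-fold lower, and the arrays also differed in sex-linked RNA, with the Y-linked Eif2s3y at 0.866 and 1972. The part of sex in the members' differences was not tested.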

How the data were processed

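The authors deposited linear MAS5 intensity values, per the submitters' processing notes, with 1 signal for each probe set on each array. No MAS5 version was given in the sources used here. The 2% trimmed mean was 500.0 on both arrays, so values were used as deposited. Of 45101 probe sets, 64 controls were left out; 34945 had 1 gene symbol in the platform annotation, 932 several and 9160 none. Gene identifiers of 34741 matched RefSeq (GRCm38.p6), which changed 0 symbols. Signals below the higher of the arrays' 50th percentiles (112.6) were raised to it before log2. Each gene was represented by the probe set whose log2 signal, averaged over both arrays, was highest. Differences are knockout minus wild type, and those with 1 array on the floor are bounds ("at least N-fold"). There is 1 array per genotype, which limits the precision, so no test was made and no SD exists. All 40 members are named, as are up to 3 genes with the largest absolute difference of other mesenchyme, matrix and signalling lists; of cell type lists the text names fewer. Members and lists were chosen with earlier results of these data known. Alternatives were other floors, probe set choices, normalizations and size marks. Counting was tested on simulated data. Scripts ran under Python 3.11.15 with pandas 2.3.3, numpy 2.4.6 and, for lowess, statsmodels 0.14.6; matplotlib 3.10.9 drew the figures. Promoters are from RefSeq.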

Additional observations from a re-analysis of the deposited data

How the results depend on the processing

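The count of members at least 2-fold higher was 11 to 17 of 23 to 37 measured over the 7 other floors, probe set choices and normalizations. The share of all genes moved from 2.53% to 12.5% over the same settings, and the 17 and the 12.5% both come from no floor and no filter. The members' median log2 difference was 0.86 to 0.92. At a mark of 1.5-fold the members' count was 22, against 9.87% of all genes, and at 3-fold it was 5, against 0.869%. The count at least 2-fold lower was 0 except with no floor and no filter, where it was 1. The mesothelial median was 0.70 with no floor and 0.71 with it at the 30th percentile, in both cases the value of Bnc1. With the floor at the 60th percentile Wt1 and Bnc1 were no longer measured, and the 0.69 there is Upk3b alone. The elastic fibre median was 1.01 at the 60th percentile, the value of Mfap2, because Fbln2 and Fbln5 were no longer measured there. Collagens reached 1.31 on probe sets without the suffixes _s_at, _x_at and _a_at, other contractile genes 0.66 there and 0.55 at the 60th percentile, and the signalling list 0.79 with no floor and 0.71 with it at the 30th. The causes of the collagen, contractile and signalling shifts were not tested. Of the 12 higher members, 8 stayed at least 2-fold higher under each of these 7 alternatives, while Ngfr, Fbln1, Mfap2 and Loxl1 did not. Fbln1 was 0.96 as the median over probe sets and 0.30 without the suffixed ones, and Ngfr was 0.57 as that median. Both Fbln1 values are bounds and the Ngfr median includes a bound, so these values do not show a smaller difference. Cdh11, Hand2, Lhx2, Tcf21 and Lum each have 1 measured probe set, without a suffix and above every floor used. Other floors and probe set choices therefore left their values nearly unchanged by construction, and only the normalizations could alter them. Nid1 turned to -0.014 as the median over probe sets. Settings added after seeing the data were members measured on both arrays only, with 11 higher, probe sets counted singly, with 18, and probe sets on both arrays only, with all higher in 3 of 4 genes. Dim signals limit what can be said of 14 of 37 members, 7 with bounds and 7 below the floor on both arrays. No paired analysis was possible because each genotype has 1 array.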
